A study of Mus musculus with 12 samples.

Results

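The enzymes of heme synthesis were followed through the neonatal mouse liver: Alas1, Alas2, Alad, Uros, Urod, Cpox, Ppox and Fech. They were taken by gene symbol, and all 8 were found among the 32285 genes of the single-cell RNA-seq tables. The libraries came from C57BL/6J pups, 6 control and 6 with phlebotomy-induced anemia (PIA), with 1 library per mouse and 12 in all. PIA pups were bled 20 µL per g of body weight, repeatedly between postnatal day 2 and day 10, to a hematocrit of 20 to 24%, control pups received needle sticks only, and livers were dissociated on day 11. No transgene or deletion was carried by either group, and the livers were rinsed to remove blood before they were dissociated. The cells were collected by slow centrifugation, and no sort for a cell type is described.

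Heme is an iron-porphyrin ring made by a chain of enzymes that begins and ends in the mitochondrion and passes through the cytosol. The chain starts with 5-aminolevulinate synthase, which exists in a ubiquitous form encoded by Alas1 and an erythroid form encoded by Alas2, and it ends with ferrochelatase, encoded by Fech, which places iron in the ring. Erythroblasts make heme for hemoglobin, hepatocytes for cytochrome P450 enzymes and other heme proteins, and liver macrophages take up old red cells and break their heme down.

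On mm10 (GRCm38), Alas1 lies at chr9:106233455-106248654 on the minus strand and Alas2 at chrX:150547375-150570638 on the plus strand. Alad is at chr4:62509169-62519918, Uros at chr7:133686243-133710072, Urod at chr4:116989965-116994413 and Ppox at chr1:171275990-171281186, all on the minus strand. Cpox is at chr16:58670292-58717636 on the plus strand. Reads of these libraries come from the 3′ part of transcripts, so the promoters themselves were not measured. The 250 bases before the RefSeq start sites (GRCm38.p6) are shown for the synthase of each kind, which differ most in where they are expressed, and for Cpox, which passed the test in both erythroblast-like and reticulocyte-like cells of anemic livers. Letters in capitals mark the 6-base GATA motifs AGATAA and TGATAA or their reverse complements TTATCT and TTATCA, searched on both strands.
Alas2 promoter, chrX:150547167-150547416, plus strand: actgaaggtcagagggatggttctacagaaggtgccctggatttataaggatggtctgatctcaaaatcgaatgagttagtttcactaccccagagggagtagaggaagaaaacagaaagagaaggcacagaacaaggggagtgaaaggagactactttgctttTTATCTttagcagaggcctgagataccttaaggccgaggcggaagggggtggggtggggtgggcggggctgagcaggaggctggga
Cpox promoter, chr16:58669958-58670207, plus strand: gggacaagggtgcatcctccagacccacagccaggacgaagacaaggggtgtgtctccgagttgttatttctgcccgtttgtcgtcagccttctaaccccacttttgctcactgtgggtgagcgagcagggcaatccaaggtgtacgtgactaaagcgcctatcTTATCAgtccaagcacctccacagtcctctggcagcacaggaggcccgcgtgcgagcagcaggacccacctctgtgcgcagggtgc
Alas1 promoter, chr9:106247955-106248204, minus strand: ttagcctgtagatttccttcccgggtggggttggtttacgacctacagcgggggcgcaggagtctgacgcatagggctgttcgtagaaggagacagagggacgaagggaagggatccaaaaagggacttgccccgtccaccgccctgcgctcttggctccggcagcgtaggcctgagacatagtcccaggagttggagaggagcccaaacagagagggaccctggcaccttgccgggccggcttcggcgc
The Alas2 and Cpox windows each held 1 motif, both beginning 86 bases before the start site. Neither of the 2 Alas1 start sites had one. Of the other windows, 1 of 2 for Uros held a motif, 68 bases before its start, and those of Alad, Urod and Ppox held none. Fech is not part of these positions and counts. Among 32851 mouse promoter windows of this length, 16.6% held at least 1 such motif, so its presence here is a description of the sequence and not a binding site.

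Of 207537 barcodes 206146 passed the filters (98075 in control, 108071 in anemia), with 14184 to 21186 cells and 45751640 to 74344118 UMIs per library. UMIs of a gene are given relative to all UMIs of its class in a library (CPM). Clusters were named from marker genes that did not include the 8 enzymes. Erythroid-like cells numbered 30531 and were divided by stage into 167 erythroid progenitor-like, 1653 erythroblast-like and 28711 reticulocyte-like cells; there were 18086 hepatocyte-like and 20592 macrophage-like cells. The names came from these marker lists, so their sums describe the classes and do not test the names. Hepatocyte markers (Alb, Apoa1 and 8 others) summed to 133510 ± 4393 CPM in control hepatocyte-like cells. Macrophage markers (C1qa, Marco and 8 others) summed to 21874 ± 1588 CPM in control macrophage-like cells. Control 3 stood apart, with 162 reticulocyte-like, 59 erythroblast-like and 0 progenitor-like cells, and results that rest on it are given without it. Anemia 2 and anemia 3 held 4771 and 2275 monocytes, against 284 to 523 in each other library, with 903 and 1004 endothelial cells against 1953 to 2903. Leaving both out, a choice made after seeing the data, is given where it changed a call. Between 0.36 and 0.694% of barcodes were shared by any library pair. Values below are mean ± SD over the libraries, n = 6 per group and n = 12 when groups are joined. Stage and class levels are descriptions without a test, because the same cells defined the classes.

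Transcripts of the first enzyme divided between cell types. Alas2, the erythroid synthase, had 30.6 ± 33.2 CPM in progenitor-like cells (n = 11), 786 ± 206 CPM in erythroblast-like cells and 2803 ± 246 CPM in reticulocyte-like cells. In hepatocyte-like cells it was 53.7 ± 31.4 CPM and in macrophage-like cells 20.9 ± 13.7 CPM, and the erythroid-like level was 43.2-fold that of hepatocyte-like cells, higher in 12 of 12 libraries. Alas1, the ubiquitous synthase, ran the opposite way, with its highest mean in hepatocyte-like cells at 72.4 ± 17.8 CPM. It followed in neutrophils (38.7 CPM, 18.3 to 62.1 over the libraries), progenitor-like (25.2 ± 31.7 CPM), stellate (24.4 ± 3.71 CPM), endothelial (21.2 ± 1.77 CPM), monocyte (20.2 ± 9.26 CPM) and macrophage-like cells (17.2 ± 1.93 CPM), where neighbours in the order differed by less than their spread. Erythroblast-like cells held 8.32 ± 4.48 CPM of Alas1 and reticulocyte-like cells 2.77 ± 1.64 CPM, the lowest of all 16 classes and stages. That rank counts globin UMIs in the total. Without them Alas1 was 18.6 ± 9.68 CPM in reticulocyte-like and 9.57 ± 5.12 CPM in erythroblast-like cells. In every one of the 12 libraries Alas1 was lower in erythroblast-like than in hepatocyte-like cells, at 0.115 of the level.

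The enzymes of the cytosolic steps peaked in erythroblasts by CPM, for Urod only with globin UMIs in the total. Alad, which joins 5-aminolevulinate molecules into porphobilinogen, was at 280.5 ± 62.5 CPM in progenitor-like, 560.2 ± 67.9 CPM in erythroblast-like and 9.38 ± 2.04 CPM in reticulocyte-like cells. Hepatocyte-like cells had 150.4 ± 17.4 CPM of Alad, second only to the 2 earlier erythroid stages, and macrophage-like cells 10.5 ± 2.54 CPM. Thus Alad was the member for which hepatocytes came nearest to erythroblasts among the 7 that were higher in erythroblasts, with a ratio of 3.73. Uros, which closes the ring to uroporphyrinogen III, was lower throughout, at 31.6 ± 24.9 CPM in progenitor-like, 186 ± 25.8 CPM in erythroblast-like and 8.51 ± 3.87 CPM in reticulocyte-like cells. Outside the erythroid line it was 6.14 ± 1.30 CPM in hepatocyte-like and 7.20 ± 1.25 CPM in macrophage-like cells, which overlapped each other. Urod, which removes carboxyl groups from the ring, had 132 ± 52.9, 313 ± 41.8 and 66.8 ± 20.4 CPM in the 3 erythroid stages in the same order. It was 54.5 ± 6.47 CPM in hepatocyte-like and 14.0 ± 1.93 CPM in macrophage-like cells.

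The mitochondrial end of the chain was also highest in erythroblast-like cells by CPM, with Cpox and Fech the most abundant transcripts. Without globin UMIs in the total, Fech was higher in reticulocyte-like cells, at 4837 ± 746 against 1190 ± 200 CPM. Cpox, coproporphyrinogen oxidase of the intermembrane space, was at 390.5 ± 91.5 CPM in progenitor-like, 1355 ± 255 CPM in erythroblast-like and 66.8 ± 26.9 CPM in reticulocyte-like cells. Hepatocyte-like cells held 171 ± 16.4 CPM and macrophage-like cells 13.9 ± 1.22 CPM of Cpox, a hepatocyte to macrophage ratio of 12.3. Ppox, the inner-membrane oxidase that yields protoporphyrin, was 38.8 ± 10.7, 194 ± 20.0 and 11.5 ± 6.25 CPM in the erythroid stages. In hepatocyte-like and macrophage-like cells it was 6.55 ± 1.43 and 6.85 ± 0.787 CPM, levels that did not differ beyond their spread. Fech, a gene of chromosome 18, was at 144 ± 26.7 CPM in progenitor-like, 1027 ± 143 CPM in erythroblast-like and 695 ± 82.8 CPM in reticulocyte-like cells, against 81.6 ± 13.1 CPM in hepatocyte-like and 31.8 ± 3.71 CPM in macrophage-like cells. Erythroblast-like cells exceeded hepatocyte-like cells in 12 of 12 libraries for Uros (30.3-fold), Ppox (29.6-fold), Fech (12.6-fold), Cpox (7.93-fold) and Urod (5.75-fold). These are levels of 3′ UMIs without length correction, so differences between genes are in molecules captured.

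**Figure D1:**
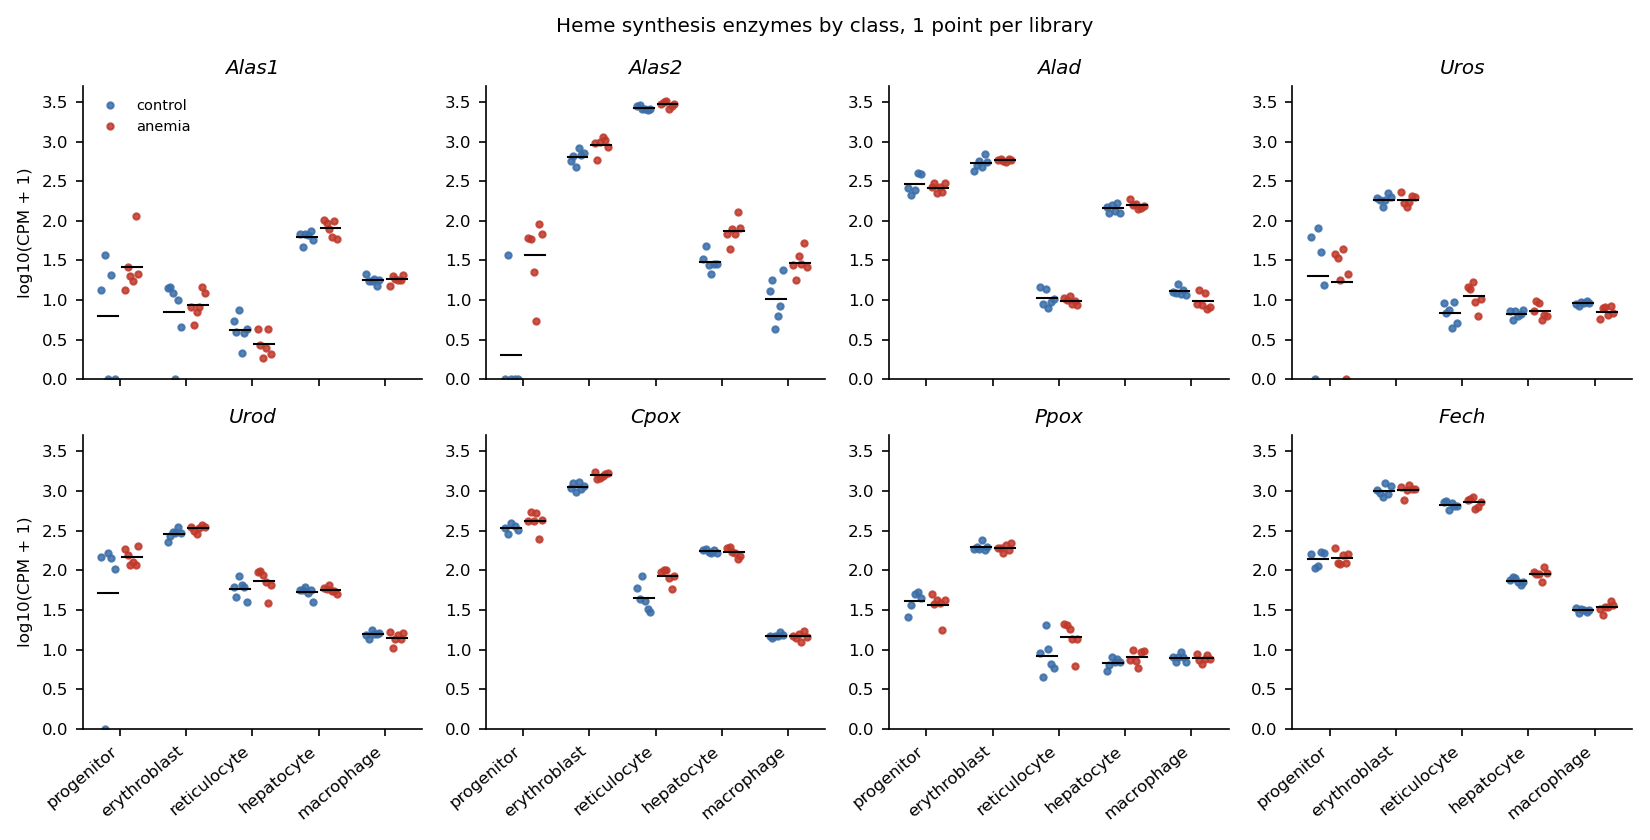
Level of each of the 8 enzymes in 5 cell classes. The vertical axis is log10(CPM + 1), each point is a library (blue control, red anemia) and lines mark the mean of the log values; Alas2 is highest in reticulocyte-like cells at 2803 CPM, Alas1 in hepatocyte-like cells at 72.4 CPM, and the other 6 in erythroblast-like cells. The total includes globin UMIs, without which Urod and Fech are higher in reticulocyte-like cells. Control 3 has no progenitor-like point.

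Ordering the erythroid clusters by the share of their UMIs in globin transcripts, from 0.635% in progenitors to 87.4% in the most globin-rich reticulocytes, showed that the enzymes did not move together. The order used no enzyme, and it describes pooled clusters without replication. Alad and Cpox were already at 274 and 445 CPM in the progenitor cluster, where Alas2 was 30.1 CPM. In an early erythroblast cluster of 357 cells with 4.68% globin, Cpox reached 1527 CPM and Alad 602 CPM, while Alas2 was 325 CPM and Ppox 142 CPM. Alad peaked at 811 CPM with 22.9% globin, in a cluster of 320 cells, and Cpox peaked at 2469 CPM with 31.0% globin, in 217 cells. In the next cluster, of 533 cells with 45.8% globin, Alad was at 172 CPM and Cpox at 639 CPM, but Urod (512 CPM), Fech (2085 CPM) and Alas2 (2727 CPM) were higher than before. The first and last enzymes of the chain were thus still higher, as a share of UMIs, where Alad and Cpox had passed their maximum. In the 3 large reticulocyte-like clusters, with 85.7, 87.2 and 87.4% globin and 4070, 10934 and 12544 cells, Alas2 stayed between 2869 and 2924 CPM. Over the same 3 clusters Urod went from 156 to 63.1 to 22.3 CPM, Ppox from 30.0 to 10.6 to 3.36 CPM and Uros from 19.8 to 9.17 to 4.04 CPM. Fech spanned less, from 794 to 696 to 665 CPM.

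Because globin fills most of a reticulocyte library, CPM in that stage depends on what is counted. With globin UMIs taken out of the total, Alas2 was 20514 to 22847 CPM in the 3 large reticulocyte-like clusters, against 5034 CPM in the last erythroblast cluster, and Fech was 5273 to 5573 CPM against 3850 CPM. Urod was 4.69-fold higher in erythroblast-like than in reticulocyte-like cells by CPM and 0.783 of the reticulocyte level without globin. The same change of total moved Fech from 1.48 to 0.246. For these genes and for Alas1 the order of the 2 stages rested on the denominator. Alad, Uros, Cpox and Ppox were higher in erythroblast-like cells in 12 of 12 libraries either way. Counted per cell, Cpox gave 839.6 UMIs per 100 cells in the cluster with 31.0% globin, 98.3 in that with 45.8% and 4.68 in that with 87.4%. Alas2 gave 578, 419.5 and 335 UMIs per 100 cells in the same clusters, and Fech 529, 321 and 77.3.

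**Figure D2:**
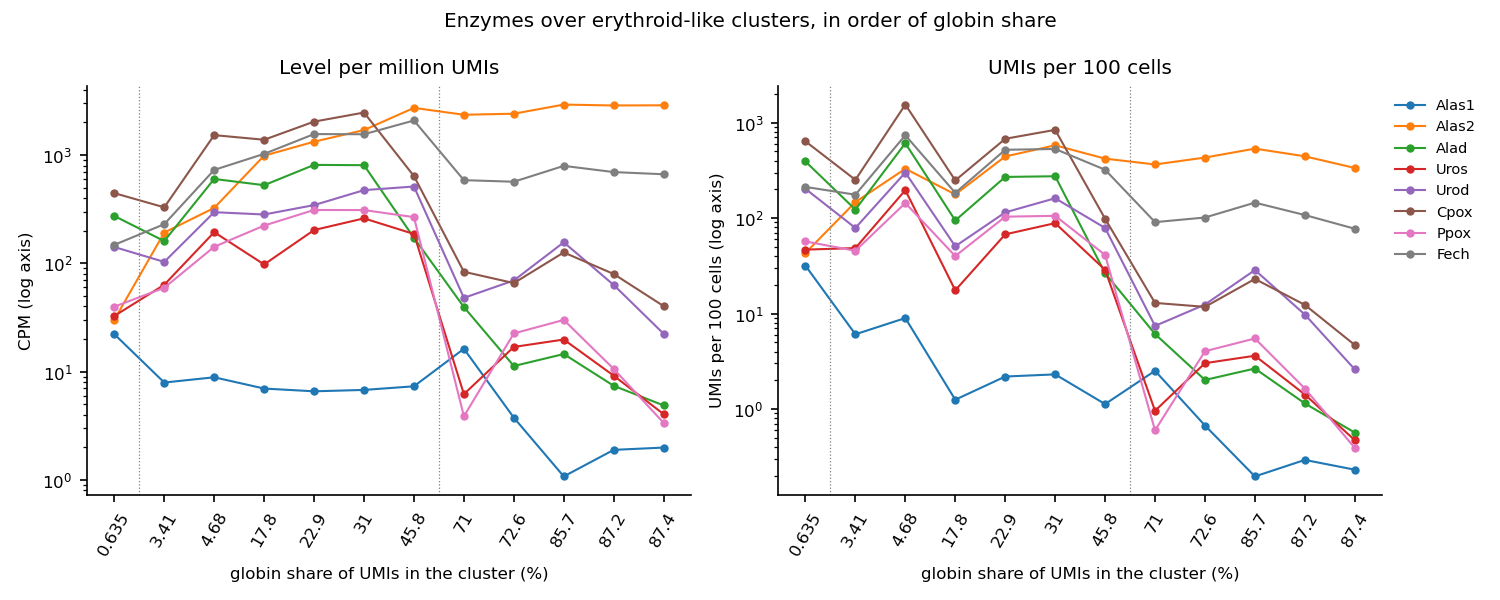
The 8 enzymes over 12 erythroid clusters ordered by globin share, from 0.635 to 87.4%. The left panel gives CPM and the right panel UMIs per 100 cells, both on log axes; dotted lines separate progenitor-like, erythroblast-like and reticulocyte-like clusters, and a cluster of 29 cells is left out. Cpox and Alad peak in erythroblast-like clusters and fall, whereas Alas2 stays at 2869 to 2924 CPM in the large reticulocyte-like clusters.

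The Alas2 UMIs seen in other cells went with globin RNA. Hepatocyte-like cells held 3516 CPM of globin in the pooled control cells and 21399 CPM in the anemic ones. At the ratio of Alas2 to globin found in reticulocyte-like cells, that globin would carry 11.1 and 71.7 CPM of Alas2, against 28.9 and 83.3 CPM measured. In macrophage-like cells 10.6 and 25.1 CPM would be carried against 12.3 and 28.6 CPM measured. A UMI of Alas2 was found in 5.35% of control and 6.47% of anemic hepatocyte-like cells, with a median of 1345 and 1150 UMIs per cell. B cells, which should lack the gene, had one in 1.71 and 3.06% of cells, with a median of 1325 and 1459 UMIs. With each cell thinned to 500 UMIs the hepatocyte-like shares were 1.84 and 2.85% and those of B cells 0.639 and 1.28%, whereas reticulocyte-like cells had 72.5 and 75.7%, so the Alas2 of hepatocyte-like and macrophage-like cells is read here with the globin beside it.

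Counted over all kept cells, the enzymes differed in how much of their RNA lay in erythroid cells. Pooled over the 12 libraries, erythroid-like cells held 83.0% of Alas2 UMIs, 59.6% of Fech, 43.7% of Cpox, 30.8% of Uros, 28.9% of Ppox, 28.2% of Urod, 19.1% of Alad and 1.35% of Alas1. Alas1 lay mostly elsewhere, with 20.3% in endothelial, 18.9% in hepatocyte-like and 12.9% in macrophage-like cells. In anemic livers the erythroid share of cells was 21.7 ± 7.22% against 6.94 ± 4.45% in control livers, and the share of all UMIs 11.0 ± 3.91% against 2.51 ± 1.41%, with the 2 groups overlapping. The erythroid share of Cpox UMIs was 16.4 ± 3.35% in control and 54.6 ± 9.04% in anemic livers, and no anemic library was as low as any control. The same separation was seen for Alad (7.22 ± 2.12 to 27.5 ± 7.55%), Uros (11.9 ± 2.24 to 42.5 ± 12.7%), Urod (10.2 ± 2.99 to 38.9 ± 8.93%), Ppox (11.1 ± 2.65 to 38.6 ± 10.9%) and Fech (33.8 ± 12.8 to 67.3 ± 7.58%). For Alas2 (74.5 ± 7.22 to 83.4 ± 4.28%) and Alas1 (0.58 ± 0.337 to 2.10 ± 0.994%) the groups overlapped. How many of all genes have an erythroid share that separates in this way was not counted. The hepatocyte-like share of Cpox was 29.9 ± 4.37% in control and 14.4 ± 5.23% in anemic livers. The groups met at their edges, with nearly equal shares in control 2 (411 of 1820 UMIs) and anemia 5 (644 of 2854 UMIs).

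**Figure D3:**
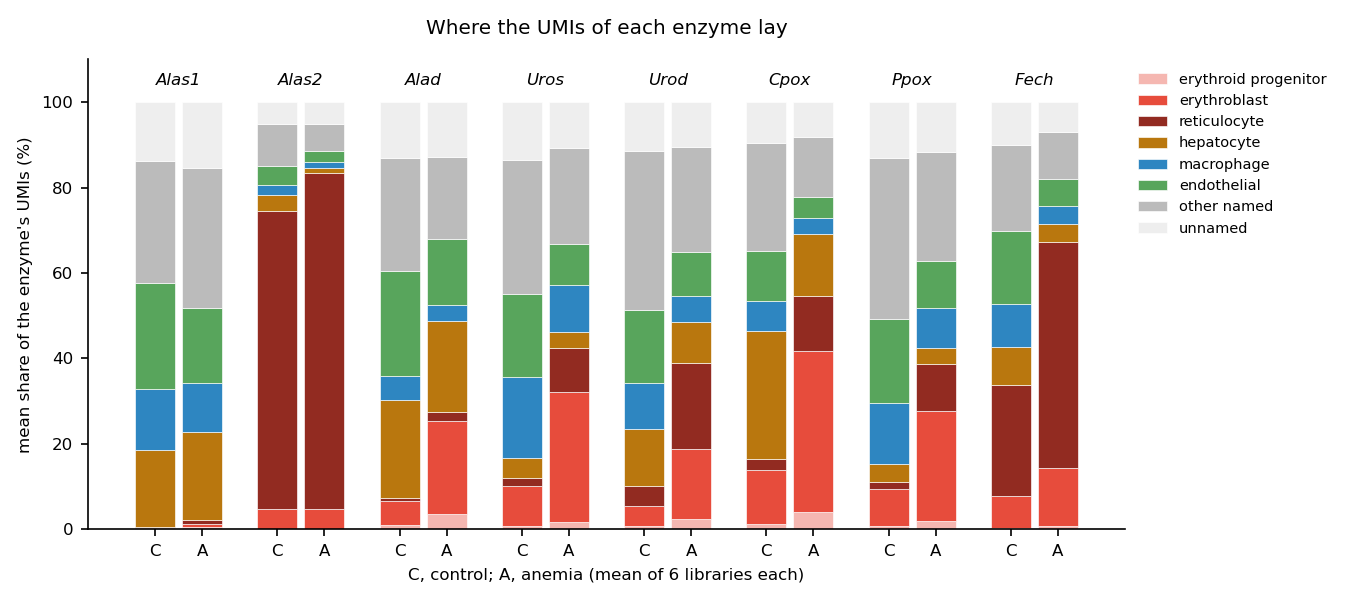
Mean share of the UMIs of each enzyme that lay in each cell class, in percent, with a bar for control (C) and one for anemia (A), 6 libraries each. The erythroid-like part of the Cpox bar goes from 16.4 to 54.6%, and that of Alas1 stays at 2.10% or less.

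Over the 16 classes and stages, the members fell into different profiles. The Pearson correlation of log2(CPM + 1) was 0.97 between Urod and Cpox, 0.90 between Uros and Ppox, 0.90 between Alad and Cpox and 0.86 between Alas2 and Fech, whereas Alas1 had −0.49 to 0.21 with the other 7. Among 11613 genes, those most like Alas2 were the globins Hba-a1 (r = 0.996) and Hbb-bt (r = 0.994). Glrx5, an iron-sulfur cluster protein, was the closest to both Urod and Cpox (r = 0.98 for each), and the red cell membrane protein gene Kel was closest to Ppox (r = 0.97), followed by Cldn13 (r = 0.96). Alad was most like Acp1 and Garem1 (r = 0.92 each), Uros like 5430401H09Rik and Tac2 (r = 0.91 each), Fech like Syt14 and Fn3krp (r = 0.94 each), and Alas1 like Mcee (r = 0.91) and Arsg (r = 0.87). The 16 points share libraries and free RNA, and the correlations are descriptions.

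In reticulocyte-like cells, 6 of the 8 enzymes passed the test as higher in anemia: Cpox, Ppox, Uros, Urod, Alas2 and Fech. Over all 5037 genes tested, 8.12% passed in either direction and 6.08% as higher, and the median log2 fold change was 0.77 over the 8 enzymes against −0.01 over all genes. The test was edgeR's quasi-likelihood test on UMIs summed per mouse, with TMM scaling and Benjamini-Hochberg adjustment over all genes tested, called at an adjusted p under 0.05. Cpox ranged from 28.6 to 84.1 CPM, median 41.1, in control and from 57.4 to 101 CPM, median 89.3, in anemic libraries. Control 1 and control 3 reached above the lowest anemic library, and the other 4 controls lay below all anemic ones. The log2 fold change was 1.46 ± 0.19 (SE, adjusted p = 3.7e-05), it was 1.52 without control 3, and it passed under all 22 alternatives. Ppox was 3.48 to 19.4 CPM, median 6.91, in control and 5.26 to 19.8 CPM, median 14.9, in anemic libraries. Its groups overlapped over most of their range, and the log2 fold change was 1.56 ± 0.32 (adjusted p = 0.0034; 1.66 without control 3).

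Of the cytosolic enzymes, Uros and Urod passed. Uros had 3.48 to 8.49 CPM, median 6.22, in control and 5.39 to 16.1 CPM, median 11.1, in anemic libraries, a log2 fold change of 1.29 ± 0.29 (adjusted p = 0.0064). Urod had 38.4 to 84.1 CPM, median 60.3, against 38.1 to 96.9 CPM, median 78.9, a log2 fold change of 0.90 ± 0.20 (adjusted p = 0.0061). In both the ranges overlapped, and for Urod the lowest anemic library was as low as the lowest control. Alas2, already the most abundant of the 8 in these cells, had 2523 to 2878 CPM, median 2590.1, in control and 2554 to 3271 CPM, median 2978, in anemic libraries (0.63 ± 0.16, adjusted p = 0.017). Fech had 569 to 737 CPM, median 678, against 589 to 842 CPM, median 743 (0.57 ± 0.18, adjusted p = 0.048). Their groups overlapped widely. Without control 3 the values were 1.29 for Uros, 0.92 for Urod, 0.55 for Alas2 and 0.47 for Fech, and all 4 passed. Alad was 9.89 ± 2.74 CPM in control and 8.86 ± 1.01 CPM in anemic libraries (0.32, adjusted p = 0.42), and Alas1 was 3.56 ± 1.79 against 1.97 ± 1.08 CPM (−0.26, adjusted p = 0.79); neither passed.

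The size of these differences depended on the scaling. Without TMM factors the median of all genes in reticulocyte-like cells was −0.43, calls went from 306 higher and 103 lower to 91 higher and 566 lower, and of the enzymes only Cpox (0.98, adjusted p = 0.0068) and Ppox (1.15, adjusted p = 0.041) passed. Uros was then 0.88 (adjusted p = 0.073), Urod 0.42 (adjusted p = 0.197), Alas2 0.14 (adjusted p = 0.223) and Fech 0.10 (adjusted p = 0.57). Alas2 also missed the threshold without control 1, and Fech missed it in 12 of its 22 alternatives, among them without anemia 2 (0.55, adjusted p = 0.072), and also without anemia 2 and anemia 3 together (0.49, adjusted p = 0.0749). Per cell, all reticulocyte-like libraries of anemic mice held more Alas2 (449 ± 48.2 against 296 ± 31.2 UMIs per 100 cells), Fech (109.8 ± 14.4 against 74.8 ± 12.0) and Cpox (13.2 ± 3.01 against 5.17 ± 1.87) than any control. The share of all genes that separate in this way per cell was not counted. Total UMIs per reticulocyte-like cell were 1540 ± 255 in anemia against 1113 ± 97.5 in control, and a UMI of Cpox was in 10.7% of anemic and 3.93% of control cells, or 3.85 and 1.71% at 500 UMIs per cell, against 0.881 and 1.03% in B cells.

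The mix of reticulocyte-like clusters also differed in cells pooled over the libraries of each group. The cluster with the most globin held 59.7% of control and 38.8% of anemic reticulocyte-like cells, and the next 28.0 and 41.2%. The one with the highest Urod, Uros and Ppox among the 3 large clusters held 7.66 and 16.2%. Control libraries gave from 162 to 2409 of these cells each. The shares therefore weigh mice unequally, and their spread between mice is not given here. Fits within these 3 clusters were added after seeing the data, and the shares of all genes they called are not given here. Cpox passed within each, with log2 fold changes of 1.25, 1.25 and 0.58. Alas2 had 0.60, 0.50 and 0.47 and passed in the first and last, and Fech had 0.53, 0.34 and 0.28 and passed in the first alone. Urod, at 0.36, 0.34 and 0.17, passed in none, nor did Uros (0.66 and 0.65) or Ppox (0.97 and 0.87) in the 2 clusters where they could be tested. Hepatocyte markers in reticulocyte-like cells summed to 7048 ± 1133 CPM in control and 2414 ± 1326 CPM in anemic libraries, without overlap. These 10 markers, Alb among them, are secretory genes of hepatocytes, and their part in the differences was not tested.

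In erythroblast-like cells 1 of 7 enzymes tested passed, against 0.632% of all 7439 genes. This was Cpox, with 967 to 1289.6 CPM, median 1127, in control and 1405 to 1729.5 CPM, median 1569, in anemic libraries. Every anemic library was above every control. The log2 fold change was 0.53 ± 0.11 (adjusted p = 0.033), but the call was lost in 10 of 22 alternatives, including without control 3 (0.49, adjusted p = 0.062) and with doublet calls left out (0.44, adjusted p = 0.515). Cpox passed in none of 3 sub-clusters fitted after seeing the data (0.50, 0.30 and 0.60). Only sub-clusters of at least 300 cells were fitted, and the smaller one where Cpox peaked was not among them. Alas2 had 469.5 to 824.5 CPM in control and 581 to 1124 CPM in anemic libraries (0.56 ± 0.17, adjusted p = 0.16). Without anemia 2 and anemia 3 both Cpox (0.61, adjusted p = 0.00925) and Alas2 (0.69, adjusted p = 0.0202) passed. Alas2 passed within the most globin-rich of the fitted erythroblast sub-clusters (0.60, adjusted p = 0.0044), as did Urod (1.21, adjusted p = 0.0065). In the other fitted sub-clusters neither passed, with 0.09 and 0.45 for Alas2 and −0.23 and 0.90 for Urod. The shares of all genes called within sub-clusters are not given here. The remaining enzymes had log2 fold changes of 0.28 for Urod, 0.18 for Alad, 0.09 for Fech, 0.07 for Uros and 0.05 for Ppox, and Alas1 had too few UMIs to test.

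Counted per cell, erythroblast-like cells of anemic livers held more of 6 of the 8 enzymes in every library than any control. Cpox was at 732 ± 65.6 against 354 ± 57.5 UMIs per 100 cells, Alas2 at 423 ± 63.7 against 202 ± 39.1 and Fech at 479 ± 49.1 against 317 ± 58.3. Urod was at 157 ± 15.9 against 90.1 ± 15.5, Alad at 273 ± 30.3 against 167 ± 35.7 and Ppox at 89.9 ± 14.7 against 60.6 ± 6.08. Uros and Alas1 overlapped between the groups. These cells also held more UMIs of all genes, 4674 ± 459 against 3118 ± 436 per cell without overlap. How many of all genes separate in this way per cell was not counted. By CPM, Cpox alone of the 8 lay higher in every anemic library than in any control. There were 96 to 458 erythroblast-like cells per anemic library and 45 to 80 per control library, and hepatocyte markers summed to 3706 ± 1058 CPM in control and 1450 ± 583 CPM in anemia.

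Progenitor-like cells were few, and none of the 7 enzymes tested passed, against 0.178% of 5620 genes, in a fit of 5 control and 6 anemic libraries. Alas2 had 0 UMIs in 4 of the 5 control libraries and 1 UMI, or 35.6 CPM, in control 2. The 6 anemic libraries had 4.47 to 90.9 CPM (3.72 ± 1.20, adjusted p = 0.42). Alas2 was the 1 enzyme with an unadjusted p under 0.05, beside 5.91% of all genes, and DESeq2 called 0 of the 7 and 0.249% of genes. A difference in Alas2 was thus not resolved in these few cells. Cpox had 341.6 ± 39.8 CPM in control and 431 ± 105 CPM in anemia (0.36, adjusted p = 0.84). The globins Hbb-bt, Hbb-bs, Hba-a2 and Hba-a1 did pass in these cells, with log2 fold changes of 4.94, 4.52, 4.20 and 3.89. With doublet calls left out 1 of these 4 still passed, Hbb-bt (5.95, adjusted p = 0.0039), and Hbb-bs was 3.52 (adjusted p = 0.186), Hba-a2 4.12 (adjusted p = 0.0504) and Hba-a1 3.52 (adjusted p = 0.109). Globin took 0.0607 ± 0.0462% of their UMIs in control and 1.02 ± 0.592% in anemia. Pooled non-erythroid cells of the same livers held like amounts in anemia, 10103 CPM in monocytes and 14272 CPM in NK cells, against 4164 and 6103 CPM in control, and the part of free RNA in the progenitor values of globin and Alas2 was not tested.

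With the 3 stages summed, none of the 8 enzymes passed in erythroid-like cells with edgeR, against 0.463% of 9938 genes, but the answer depended on the tool. Urod and Cpox, the 2 with an unadjusted p under 0.05 (10.1% of all genes), were called by DESeq2, which called 1.14% of all genes. Limma-voom fitted to all classes together called 6 enzymes, all but Alas1 and Alas2, and 6.63% of all genes. Cpox (0.65 ± 0.15, adjusted p = 0.070) and Urod (0.48 ± 0.11, adjusted p = 0.087) came nearest, and control 3 was far above the other controls for Cpox, at 555 CPM against 142 to 288 CPM. Erythroblast-like cells made up a larger part of its erythroid cells, since it held few reticulocyte-like cells. Without control 3 the values were 0.70 (adjusted p = 0.058) for Cpox and 0.49 (adjusted p = 0.096) for Urod, and without TMM factors they were 0.20 and 0.06.

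**Figure D4:**
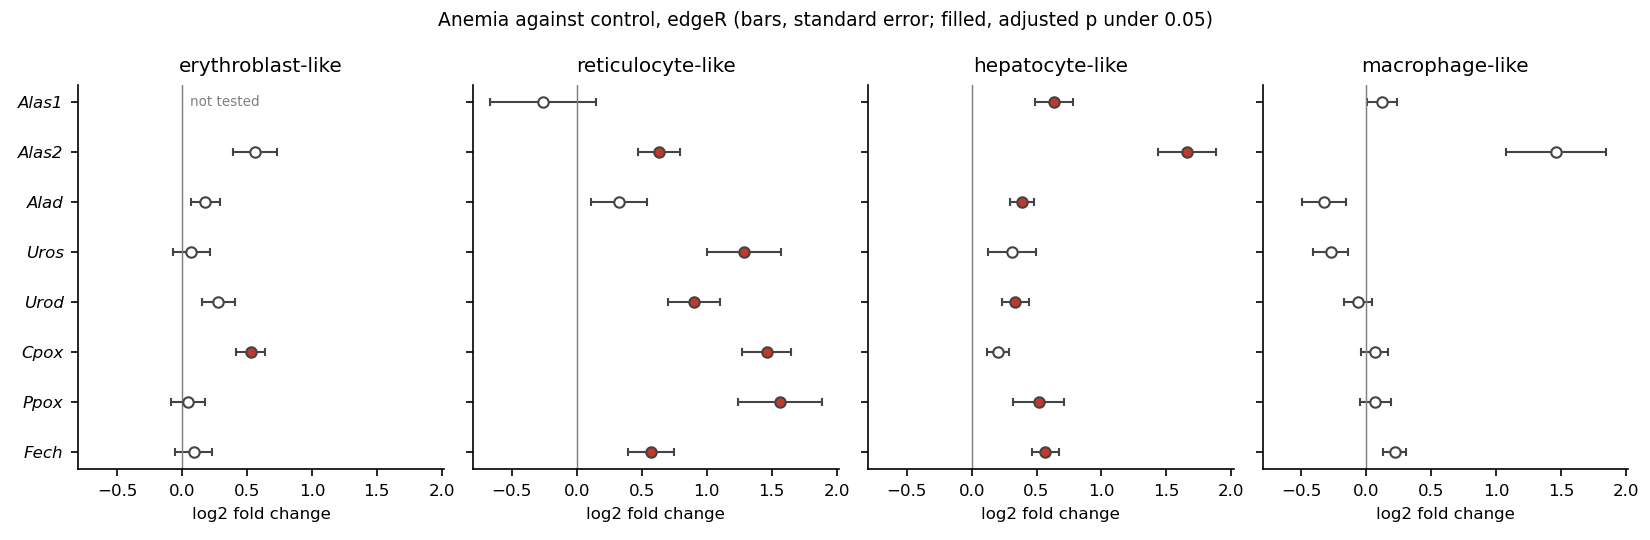
Log2 fold change of each enzyme, anemia against control, in reticulocyte-like, erythroblast-like, hepatocyte-like and macrophage-like cells, with bars of 1 SE and filled points where the adjusted p is under 0.05 in edgeR with TMM. In reticulocyte-like cells 6 points are filled, with Cpox at 1.46 and Ppox at 1.56; in macrophage-like cells none is.

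In hepatocyte-like cells, 6 of 8 enzymes passed as higher in anemia, in a class where 55.6% of 12043 genes passed in either direction and 25.2% as higher. Alas1, the synthase that hepatocytes use, had 46.0 to 73.7 CPM, median 66.4, in control and 57.7 to 102 CPM, median 85.2, in anemic libraries. The upper anemic libraries lay above all controls and the lower ones among them, and the log2 fold change was 0.63 ± 0.14 (adjusted p = 0.0014). Alas2 had 20.6 to 46.9 CPM, median 27.6, against 42.7 to 127 CPM, median 73.2 (1.66 ± 0.22, adjusted p = 1.2e-05), and the groups met at their edges only. Fech had 65.1 to 80.6 CPM, median 72.0, against 69.3 to 108 CPM, median 90.9 (0.57 ± 0.10, adjusted p = 0.00017). Ppox (0.52 ± 0.20, adjusted p = 0.035), Alad (0.39 ± 0.09, adjusted p = 0.0016) and Urod (0.34 ± 0.10, adjusted p = 0.0093) passed too. Cpox (0.20, adjusted p = 0.055) and Uros (0.31, adjusted p = 0.215) did not pass with edgeR, while DESeq2 and limma-voom each called 7 enzymes, Cpox included, beside 52.7 and 51% of all genes. Cpox also passed without anemia 2 and anemia 3 (0.22, adjusted p = 0.0394).

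These hepatocyte differences changed with the scaling and within clusters. Without TMM factors the median of all genes went from −0.09 to −0.41, and the enzymes had 0.32 (adjusted p = 0.079) for Alas1, 1.33 for Alas2, 0.25 (adjusted p = 0.038) for Fech, 0.20 for Ppox, 0.07 for Alad, 0.02 for Urod and −0.12 for Cpox, so that only Alas2 and Fech passed. Per cell, Alas1 was 15.9 ± 3.18 UMIs per 100 cells in control and 15.5 ± 3.35 in anemia, Fech 18.4 ± 2.21 and 17.0 ± 1.40, and Alad 36.2 ± 5.16 and 29.8 ± 3.48. Cells of anemic livers held 1895 ± 161 UMIs against 2532 ± 286 in control, without overlap. Within the 5 hepatocyte-like clusters of at least 1000 cells, fitted after seeing the data, Alad ran from −0.54 to −0.17 and passed as lower in one (−0.54, adjusted p = 0.0136). Urod ran from −0.56 to −0.11, Alas1 from −0.09 to 0.52 and Fech from −0.01 to 0.29, and these 3 passed in none of the clusters. Alas2 ran from 0.63 to 1.18 and passed in 2 of them. For Alad and Urod the direction in the summed cells was therefore not found in any of these 5 clusters. The shares of all genes called within these clusters are not given here.

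The Alas2 of hepatocyte-like cells moved with globin. Globin took 0.381 ± 0.258% of UMIs in control and 1.94 ± 0.890% in anemic hepatocyte-like cells, and erythroid markers summed to 11.9 ± 5.28 against 43.7 ± 15.6 CPM. In the cells at or below the median globin share of their library the log2 fold change of Alas2 was 0.20 (adjusted p = 0.278), that of Alas1 0.67 (adjusted p = 0.00152) and that of Fech 0.39 (adjusted p = 0.0051). Alas2 follows globin over the classes (r = 0.996 with Hba-a1), so a choice of cells by globin also selects on Alas2. It cannot separate one from the other, and the source of the Alas2 was not tested. At the reticulocyte ratio to globin, 2.83 of 72.3 CPM of Fech would be carried in pooled control and 17.3 of 91.4 CPM in pooled anemic hepatocyte-like cells.

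**Figure D5:**
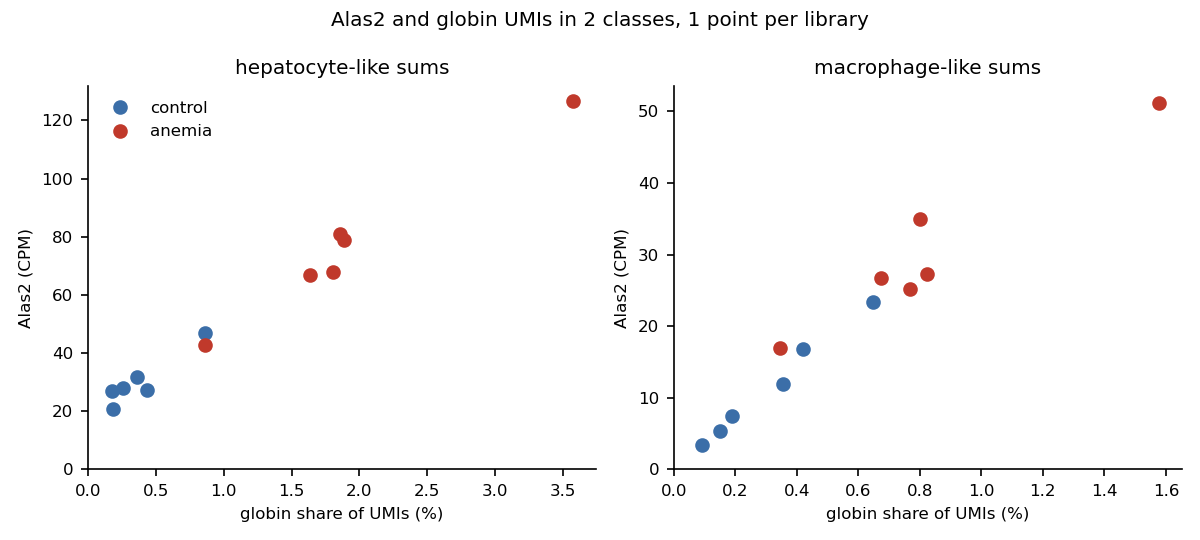
Alas2 in CPM against the share of UMIs in globin genes, in percent, for the hepatocyte-like and macrophage-like sums of each library (blue control, red anemia). Libraries with more globin tend to have more Alas2 in both classes, though single libraries break the order. The anemic hepatocyte-like sums have 1.94 ± 0.890% globin against 0.381 ± 0.258%.

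In macrophage-like cells no enzyme passed with edgeR, against 3.09% of 14498 genes. Alas2 and Fech were the 2 with an unadjusted p under 0.05, beside 21.1% of all genes. DESeq2 called 1 enzyme, Alas2, and 6.76% of genes, and limma-voom called 0 and 6.35%. Alas2 had 3.34 to 23.3 CPM, median 9.68, in control and 17.0 to 51.2 CPM, median 27.0, in anemic libraries (1.46 ± 0.39, adjusted p = 0.055), and it passed in 5 of 24 alternatives. In the cells at or below the median globin share it was 1.05 ± 0.31 (adjusted p = 0.0792). Erythroid markers in these cells summed to 6.68 ± 2.71 CPM in control and 17.7 ± 4.63 CPM in anemia, without overlap. Alas1 was 17.0 ± 2.04 against 17.3 ± 1.98 CPM, and Fech 30.3 ± 1.96 against 33.3 ± 4.59 CPM (0.22, adjusted p = 0.18). Uros lay lower in every anemic library, at 4.74 to 7.40 CPM against 7.55 to 8.64 CPM, but did not pass (−0.28, adjusted p = 0.27), nor did Alad (−0.32, adjusted p = 0.29).

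Summed over all kept cells, 6 of 8 enzymes passed as higher in anemia, against 6.91% of 21175 genes in either direction and 3.17% as higher. In such sums more erythroid cells and more RNA per cell cannot be told apart, and the shares of the other classes moved too. Without anemia 2 and anemia 3, the libraries with many monocytes, the same 6 passed and Alad did also (0.50, adjusted p = 0.0102). The number of all genes called rose in that fit too. Alas2 had 17.2 to 135.2 CPM, median 62.4, in control and 135.5 to 469.5 CPM, median 335, in anemic libraries (2.34 ± 0.44, adjusted p = 0.0089). The groups thus met at their edges. Without globin UMIs in the total they overlapped, at 141.2 CPM in control 6 and 140.4 CPM in anemia 2. Cpox had 29.7 to 33.9 CPM, median 32.1, against 34.5 to 83.2 CPM, median 59.9, without overlap (1.08 ± 0.15, adjusted p = 0.0019). Fech had 35.5 to 63.9 CPM, median 48.1, against 59.2 to 140.1 CPM, median 127 (1.45 ± 0.19, adjusted p = 0.0011), where anemia 2 alone lay among the controls. Urod (0.65, adjusted p = 0.0021), Ppox (0.64, adjusted p = 0.0091) and Uros (0.56, adjusted p = 0.0073) also passed, and Ppox and Uros no longer passed without TMM factors (0.41 and 0.33). Without control 3, which was the highest control for Urod and Ppox, these were 0.72 and 0.70, and all 6 still passed. Alas1 (0.37, adjusted p = 0.149) and Alad (0.34, adjusted p = 0.178) did not pass.

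Whether anemia acted differently in erythroid-like cells than in the other classes was tested as an interaction. None of the 8 enzymes passed against hepatocyte-like cells with edgeR, where 22.5% of 9390 genes did, and none passed against macrophage-like cells, where 0.133% of 9757 genes did. An unadjusted p under 0.05 was found for 2 enzymes in the first (Alas2 and Cpox, beside 35.8% of all genes) and for 5 in the second (these and Alad, Uros and Urod, beside 9.57%). DESeq2 called Alas2 in the first, where it called 22.2% of genes, and Alas2 and Urod in the second, where it called 0.83%. Alas2 had the largest interaction against both, at −0.98 (adjusted p = 0.057) and −1.02 (adjusted p = 0.109), in the direction of a smaller difference in erythroid-like cells. At the reticulocyte ratio, globin in the other classes would carry 11.1 of 28.9 CPM of Alas2 in control and 71.7 of 83.3 CPM in anemic hepatocyte-like cells, and 10.6 of 12.3 and 25.1 of 28.6 CPM in macrophage-like cells; its part in the interactions was not tested. For Cpox the interaction was 0.47 (adjusted p = 0.067) and 0.67 (adjusted p = 0.164), in the direction of a larger one.

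Genes that serve the pathway were examined by lists, to be read beside the 6.08% of all genes called higher in reticulocyte-like cells. Of the iron-sulfur cluster genes, 3 of 8 tested were higher in anemic reticulocyte-like cells: Glrx5, a glutaredoxin needed for cluster transfer (1.02 ± 0.17, adjusted p = 0.00037), Isca1 (0.57) and the scaffold Iscu (0.49). Without TMM factors Glrx5 alone of these passed (0.53, adjusted p = 0.025), Isca1 was 0.08 and Iscu turned to −0.02. Of the iron supply and mitochondrial import genes, such as the transferrin receptor Tfrc and the mitochondrial iron importer Slc25a37, none of 7 tested passed in reticulocyte-like and none of 12 in erythroblast-like cells. At an unadjusted p under 0.05 there were 4 and 1, beside 21.1 and 10.9% of all genes, and DESeq2 called 1 in each, beside 9.45 and 1.13%. Of the 12 in erythroblast-like cells, Tfrc alone separated by CPM. It had 634 to 914 CPM in control and 920 to 1265 CPM in anemic libraries. Among regulators 2 of 10 were higher in reticulocyte-like cells, one of them Eif2ak1 (1.17 ± 0.32, adjusted p = 0.024), the heme-regulated kinase that restrains translation when heme is low. Of heme export and breakdown genes, 1 of 5 was higher there, the biliverdin reductase Blvrb (0.75). Neither Eif2ak1 (0.76, adjusted p = 0.103) nor Blvrb (0.26, adjusted p = 0.191) passed without TMM factors. Of the globins 1 of 4 passed in reticulocyte-like cells, Hbb-bt (0.61; 0.10 without TMM factors, not passing), and no list had a called gene in erythroblast-like cells other than the hepatic heme proteins, where Cyp2e1 was lower (−2.15). In erythroblast-like cells an unadjusted p under 0.05 was found for 2 iron-sulfur, 1 heme export, 0 regulator and 4 globin genes, and DESeq2 called 0 in these lists. Median log2 fold changes of these lists in reticulocyte-like cells were 0.37 for iron-sulfur, 0.42 for iron supply and 0.44 for regulators, against −0.01 over all genes.

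In hepatocyte-like cells, where 55.6% of all genes passed and 25.2% as higher, 5 of 9 listed genes of hepatic heme proteins and their partners were higher and 4 lower. Cyp2f2 (1.99 ± 0.17), the tryptophan dioxygenase Tdo2 (1.16), Cyp4a10 (1.04) and cytochrome b5, Cyb5a (0.72), were higher. The cytochromes Cyp2e1 (−1.51 ± 0.15), Cyp3a11 (−0.93) and Cyp1a2 (−0.79) and Por (−0.60), the flavoprotein reductase that passes electrons to them, were lower. Iron-sulfur genes were higher in 6 of 9, among them Isca2 (1.11), Glrx5 (0.96) and Isca1 (0.89). Of heme export and breakdown genes 2 of 7 were higher, Hmox2 (1.29) and Blvra (0.47), and 3 lower, the FLVCR family transporter Flvcr2 (−1.26), the heme oxygenase Hmox1 (−1.12) and Blvrb (−0.25). Of 12 iron supply and import genes, 3 were higher, Tmem14c (0.73), Slc25a37 (0.68) and Snx3 (0.64), and 2 lower, among them Abcb6 (−0.96). Of 9 regulators Clpx was higher (0.52) and 3 were lower, among them Bach1 (−0.68) and Nrf1 (−0.49). In the hepatocyte-like cells at or below the median globin share Slc25a37 turned to −0.52 (adjusted p = 0.0402), passing as lower, and Blvrb (−0.22) no longer passed, while the other genes named here kept their call and direction. Slc25a37 was 15.7 ± 3.58 CPM in control and 20.2 ± 7.19 CPM in anemic hepatocyte-like cells and 510 ± 71.7 and 493 ± 62.9 CPM in reticulocyte-like cells. A choice of cells by globin therefore also selects on Slc25a37. The part of free RNA in its hepatocyte-like values was not tested. Of the genes named here for hepatocyte-like cells, Slc25a37 (0.35), Blvra (0.15) and Clpx (0.21) no longer passed without TMM factors, and none changed direction. Cyp2e1, a hepatocyte gene, was also lower in macrophage-like (−2.19) and reticulocyte-like cells (−2.17).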

How the data were processed

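Single-cell RNA-seq libraries of dissociated livers from 6 control and 6 anemic pups were analysed, 1 library per mouse, so replicates were separate mice; the labels give all of them the same batch. The deposited tables hold counts of UMIs per gene and cell barcode, made by the authors with Cell Ranger (7.0.0 per the file headers) on mm10. The 3′ UMI counts were neither normalized nor filtered beyond the software's own cell calling.

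Barcodes outside 500 to 50000 UMIs, or with more than 50% of UMIs from mitochondrial genes, were dropped. The rest were clustered with Python 3.11.15 and leidenalg 0.10.2 (2000 variable genes, 20 components, 20 neighbours, resolution 2), and erythroid clusters again at resolution 1 for stages. The 8 enzymes and the pathway genes were kept out of the variable genes and the markers. A cluster was named from its markers by a scoring rule set after the clusters were seen, and unnamed clusters held 9.8% of control and 10.5% of anemic cells. Simulated doublets (0.8% per 1000 cells, 50 neighbours) marked 13.9% of cells, 11.3 to 16.9% per library; these stayed in and were left out as an alternative.

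UMIs were summed per mouse and class and tested with edgeR 4.0.16 (quasi-likelihood, TMM) in R 4.3.3, over genes that averaged 5 or more UMIs in a library, mitochondrial and ribosomal protein genes left out. SE is the absolute log2 fold change divided by the root of F. Differences between classes were tested as an interaction with the mouse as a block. Alternatives used DESeq2 1.42.0, limma 3.58.1 (voom over all classes), no TMM factors, other filters and each library left out. The edgeR test was tried on simulated counts for erythroid-like, hepatocyte-like and erythroblast-like cells. It was also tried for the difference between erythroid-like and hepatocyte-like cells. The members, gene lists and naming were chosen with earlier results of these data known. The named genes are the 8 members and, per list, class and direction, up to 4 called genes of the largest change with at least 10 CPM in a group; genes alike in profile had at least 20 CPM in a class, and the first 2 are named. Some genes that this rule selects are not reported here. Promoters are RefSeq windows on GRCm38.p6. P-values measure the spread between mice, and the 45751640 to 74344118 UMIs per library limit what low counts can show.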

Additional observations from a re-analysis of the deposited data

Results flagged for a closer look

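Of 112 groups of 4 to 10 libraries tested for a library far from the others, 9 had one, where chance gives about 1 in 20. Control 3 stood apart 5 times. In erythroid-like cells its Cpox was 555 CPM, with the nearest control at 288 and the farthest at 142, and its Ppox was 109 CPM, with the others at 22.1 to 50.3. In reticulocyte-like cells its Ppox was 19.4 CPM, with the others at 3.48 to 9.28, from 162 cells. In all kept cells its Urod was 27.6 CPM, with the others at 20.1 to 22.6, and its Ppox 9.92 CPM, with the others at 6.97 to 7.97.

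Fech in all kept cells of anemia 2 was 59.2 CPM, with the other anemic libraries at 113 to 140 CPM. In erythroblast-like cells Ppox of control 4 was 238 CPM, with the other controls at 180 to 194 CPM. In the few progenitor-like cells Alas1 of anemia 5 was 116 CPM, with the others at 12.5 to 25.5 CPM, and Alas2 of control 2 was 35.6 CPM, with the other controls at 0. That Alas2 value was 1 UMI from 6 cells. With the other controls at 0, any count in 1 library is flagged, so this flag carries no information.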

How the results depend on the processing

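Leaving aside fits within clusters, of 1436 comparisons of an enzyme with its value under an alternative setting, 1299 kept direction and side of the threshold, 44 lost the call, 47 gained it and 46 changed direction; of 421 for called enzymes, 377 kept the call and none changed direction. The number of genes called moved by over 1.5 times as follows, and the cause was not tested. In erythroid-like cells 46 became 113 with DESeq2, 157 with no filter, 10 with the replicate block, 10 without doublet calls and 659 in the joint voom model. In hepatocyte-like cells 6690 became 4328 at a mean of 50 UMIs, where fewer genes are tested. In macrophage-like cells 448 became 980 with DESeq2, 257 at 50 UMIs and 920 in the joint model. In progenitor-like cells 10 became 6 without globin genes, 44 with no filter, 23 with the replicate block and 1 without doublet calls. In erythroblast-like cells 47 became 84 with DESeq2, 244 with no filter and 94 with the replicate block. In reticulocyte-like cells 409 became 657 without TMM factors and 254 at 50 UMIs. In all kept cells 1464 became 2696 with DESeq2, 5018 without TMM factors and 863 with Y-linked expression as covariate. The difference from hepatocyte-like cells went from 2114 to 295 without TMM factors, 1316 at 50 UMIs and 857 without doublet calls, and that from macrophage-like cells from 13 to 81 with DESeq2, 217 with no filter and 3 without doublet calls.

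Without anemia 2 and anemia 3 together, chosen after seeing the data, 47 calls in erythroblast-like cells became 128 and 1464 in all kept cells became 2861, and the direction turned for macrophage-like Urod (0.019), Uros against hepatocyte-like (0.141) and Alas1 against macrophage-like cells (0.185). Leaving out 1 library gave 17 to 140 calls in erythroid-like, 6165 to 6644 in hepatocyte-like, 142 to 556 in macrophage-like, 7 to 13 in progenitor-like, 14 to 96 in erythroblast-like and 269 to 555 in reticulocyte-like cells, 705 to 1539 in all kept cells, and 1519 to 2256 and 4 to 20 for the differences. Higher and lower calls without TMM factors were 9 and 45 in erythroid-like cells (37 and 9 with them), 1599 and 5694 in hepatocyte-like (3030 and 3660), 160 and 253 in macrophage-like (224 and 224), 22 and 42 in erythroblast-like (30 and 17) and 446 and 4572 in all kept cells (671 and 793), 105 and 190 for the difference from hepatocyte-like cells (983 and 1131) and 2 and 9 for that from macrophage-like cells (10 and 3).

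Library numbers shared by the groups gave no clear pairing of the samples. Correlations of same-numbered libraries ran from −0.471 to 0.403 in erythroid-like and from −0.050 to 0.240 in reticulocyte-like cells. They ran from −0.139 to 0.460 in erythroblast-like and from −0.185 to 0.549 in all kept cells. From 1 to 3 of 6 controls correlated best with their own number.

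Enzymes changed direction as follows. Without TMM factors: erythroid-like Alas1 −0.233, Alad −0.429, Uros −0.176, Ppox −0.165, hepatocyte-like Uros −0.005, Cpox −0.116, macrophage-like Cpox −0.009, Ppox −0.001, erythroblast-like Uros −0.026, Ppox −0.052, Fech −0.010, reticulocyte-like Alad −0.101, and against macrophage-like cells Ppox −0.050, Fech −0.114. Without doublet calls: erythroid-like Alas1 −0.377, hepatocyte-like Uros −0.014, macrophage-like Cpox −0.003, erythroblast-like Uros −0.061, Ppox −0.108, Fech −0.047, and against hepatocyte-like cells Alad 0.021, Uros 0.395, Fech 0.112. With Y-linked expression as covariate erythroid-like Alas1 was −0.102. At 50 UMIs erythroblast-like Ppox was −0.002. At resolution 1 macrophage-like Urod was 0.011. Against macrophage-like cells Alas1 was 0.015 at resolution 1, 0.011 at 10% mitochondrial UMIs and 0.035 with no filter. In the joint model macrophage-like Cpox was −0.035, and in cells with little globin Cpox was −0.091 and Ppox −0.042. Leaving out 1 library gave −0.327 to 0.258 for erythroid-like Alas1, −0.123 to 0.004 for macrophage-like Urod, −0.006 to 0.130 for erythroblast-like Uros, −0.026 to 0.135 for Ppox there, −0.145 to 0.042 for Uros against hepatocyte-like and −0.353 to 0.128 for Alas1 against macrophage-like cells.

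Within clusters, fits chosen after seeing the data, the direction differed from that of the summed cells in these cases. In hepatocyte-like cluster 12 Alas1 was −0.087, Alad −0.335, Urod −0.306 and Cpox −0.277, in cluster 15 Alad −0.172 and Urod −0.563, in cluster 19 Alad −0.539 and Urod −0.239, in cluster 24 Alad −0.183, Urod −0.112, Cpox −0.125 and Fech −0.006, and in cluster 37 Alas1 −0.080, Alad −0.171, Urod −0.403 and Cpox −0.028. In macrophage-like cluster 2 Alas1 was −0.069, in 13 Urod 0.308 and Cpox −0.039, and in 33 Alad 0.156, Ppox −0.540 and Fech −0.094. In erythroblast-like sub-cluster 0 Ppox was −0.117 and Fech −0.202, in 2 Alad −0.190, Uros −0.174 and Urod −0.226, and in 4 Uros −0.104, Ppox −0.356 and Fech −0.058. In reticulocyte-like cluster 3 Alad was −0.204 and in 18 −0.325.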
